A study of Mus musculus with 31 samples.

Results

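The genes described here are 31 mouse genes of cholesterol synthesis and of the targets of SREBP2, measured in macrophages across 12 groups. The members come from a fixed list of names, which was chosen with earlier results of these data known. They cover the enzymes from acetyl-CoA to cholesterol, the genes that control them, sterol transport genes and fatty acid synthesis genes that share the same regulators. All 31 have an identifier in both deposited count tables and at least 1 count, among 34519 identifiers that the tables share, 18556 of which have a count in both. By role, 8 belong to the mevalonate arm, 11 to the arm from squalene to cholesterol, 4 control SREBP processing, 2 move sterols and 6 make or desaturate fatty acids.

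Cells make cholesterol from acetyl-CoA by way of mevalonate, isoprenoid diphosphates, squalene and lanosterol. The transcription factor SREBP2, made from Srebf2, is held in the endoplasmic reticulum with its escort SCAP by INSIG proteins while sterols are plentiful. When sterols fall, SCAP carries it to the Golgi, where proteases free its active part to switch on the synthesis genes. Macrophages are known for taking up and exporting large amounts of cholesterol, and oxysterols made by activated macrophages are known to restrain SREBP2 processing.

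The cells were macrophages grown from bone marrow of male C57BL/6J mice aged 6 to 12 weeks, in medium conditioned by L-929 cells. Experiment 1 compared vehicle, LPS alone, LPS after Dex, after iBRD9, after dBRD9, and after Dex combined with either compound, 7 groups of 3 libraries. Experiment 2 compared vehicle with IFNγ + LPS, alone or after Dex, dBRD9 or their combination, 5 groups of 2 libraries. A group is written with all its agents, as in Dex + iBRD9 + LPS. Dex is dexamethasone, a glucocorticoid, at 1 µM, iBRD9 is an inhibitor of the bromodomain of BRD9 at 3 or 10 µM, and dBRD9 is a degrader of BRD9 at 250 nM. BRD9 is a subunit of a BAF chromatin remodelling complex, and both compounds act on the protein, so its mRNA does not check their action. Cells were kept with these agents overnight and then stimulated for 3 h with 100 ng/ml of LPS, a lipid of bacterial envelopes that activates macrophages. The labels do not say which samples had the lower or the higher dose of iBRD9, and for IFNγ neither dose nor timing is given in the sources used here. All groups share strain, sex and culture, and no group had a gene deleted. The labels do not say whether libraries of a group came from separate animals or cultures, so p-values measure the spread between these libraries, which may be technical.

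Depth was 19.3 to 29.9 M counts per library in experiment 1 and 14.5 to 17.9 M in experiment 2. Levels are CPM, counts per 1 M of library totals scaled by TMM factors. A gene is called higher or lower at an adjusted p under 0.05 in edgeR's quasi-likelihood test, with Benjamini-Hochberg adjustment over all genes tested. The first Dex + LPS library stood apart from the others of its group, with a chi-square per degree of freedom of 42.0 and 44.8 against them, where the other libraries gave 2.31 between themselves. The first Dex + dBRD9 + LPS library (12.4 and 12.8, against 2.80) and vehicle library number 3 of experiment 1 (11.4 against each) stood apart less far. Pairs of libraries of a group in experiment 2 ranged from 3.18 to 30.9. No pair agreed within sampling noise. Results given without both libraries that stand apart leave out the first Dex + LPS and the first Dex + dBRD9 + LPS library. Macrophage markers were abundant in every library, with a summed level of 11256.7 to 23223 CPM over 7 genes in experiment 1 and 11126.2 to 14253.9 CPM in experiment 2. In bulk RNA, fewer expressing cells and less RNA per cell cannot be told apart, which holds for every result below.

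In experiment 1, 30 of the 31 members passed the filter on low counts, which asks for 10 counts in enough libraries. Npc1l1, a sterol importer of the gut, was not tested in either experiment, with 7 counts in all of experiment 1. In experiment 2, 29 members were tested, because Fdps, the farnesyl diphosphate synthase, had 45 counts there against 26270 in experiment 1. In the annotation, exons of another protein-coding gene on the same strand, Gm43738, cover 26.71% of the exon bases of Fdps. Its identifier is in the table of experiment 2 only, with 3 counts. Fdps is therefore described in experiment 1 only, and its near absence in experiment 2 is not read as expression. Other members share exon bases with neighbours: Fdft1 with the abundant Ctsb (18.31%), Scap with 5830462I19Rik (13.23%), Hmgcs1 with Gm48342 (12.12%), Tm7sf2 with Vps51 (12.08%), Idi1 with Gm48574 (9.215%) and Ggps1 with Arid4b (5.444%). The strand setting of the counting is not given in the sources used here, so reads in these stretches are of uncertain origin.

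Promoter sequences show what these genes share ahead of any measurement. SREBP2 binds the sterol regulatory element and is known to act with NF-Y, which binds the CCAAT box, and with Sp1, which binds the GC box. RefSeq windows on GRCm38.p6 (250 bases before to 50 after a gene's start) were found for 25 of the 31 members. The inverted CCAAT box ATTGG, read on both strands and so including CCAAT, was in the windows of 22 of these 25 genes (88%), against 41.06% of 27025 genes. The GC box GGGCGG, on both strands, was in 21 of 25 (84%), against 38.2%. The strict element TCACNCCAC, on both strands, was in 1 of 25 members (4%), Hmgcs1, against 1.436% of all genes, and the E-box TCACGTGA was in none, against 1.125%. The 180 bases before the start of 7 members are printed 5′ to 3′ in the direction of transcription, since they show how such promoters are built. The first 5 belong to enzymes that Dex lowered, and Insig2 and Ggps1 are members that rose where most members fell. Capitals mark ATTGG or CCAAT, and in Hmgcs1 also the sterol regulatory element. The windows lie at chr13:119690171-119690350 (Hmgcs1, plus strand), chr5:114444089-114444268 (Mvk, plus strand), chr13:8885426-8885605 (Idi1, plus strand), chr1:169969206-169969385 (Hsd17b7, minus strand), chr5:4104698-4104877 (Cyp51, minus strand), chr1:121332590-121332769 (Insig2, minus strand) and chr13:14063489-14063668 (Ggps1, minus strand).
Hmgcs1: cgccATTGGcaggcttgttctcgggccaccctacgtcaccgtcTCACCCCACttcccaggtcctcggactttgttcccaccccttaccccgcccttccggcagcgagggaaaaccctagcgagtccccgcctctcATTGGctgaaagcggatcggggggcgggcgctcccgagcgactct
Mvk: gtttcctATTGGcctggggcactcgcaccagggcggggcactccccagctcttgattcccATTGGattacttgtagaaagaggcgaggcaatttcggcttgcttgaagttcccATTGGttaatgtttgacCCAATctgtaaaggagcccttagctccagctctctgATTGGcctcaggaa
Idi1: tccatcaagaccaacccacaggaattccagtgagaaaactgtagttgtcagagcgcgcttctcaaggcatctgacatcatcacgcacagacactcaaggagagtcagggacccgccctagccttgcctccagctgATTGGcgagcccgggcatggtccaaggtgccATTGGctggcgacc
Hsd17b7: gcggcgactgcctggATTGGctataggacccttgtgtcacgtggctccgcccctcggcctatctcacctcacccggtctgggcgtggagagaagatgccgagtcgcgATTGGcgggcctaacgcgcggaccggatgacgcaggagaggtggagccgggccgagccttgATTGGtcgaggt
Cyp51: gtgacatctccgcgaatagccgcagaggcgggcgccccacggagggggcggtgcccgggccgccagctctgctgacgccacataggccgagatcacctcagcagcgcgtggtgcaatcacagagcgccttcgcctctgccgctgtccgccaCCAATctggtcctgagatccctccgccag
Insig2: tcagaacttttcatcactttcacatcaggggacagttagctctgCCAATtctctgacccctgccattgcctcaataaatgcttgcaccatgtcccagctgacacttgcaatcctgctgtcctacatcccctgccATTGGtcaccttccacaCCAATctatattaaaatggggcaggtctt
Ggps1: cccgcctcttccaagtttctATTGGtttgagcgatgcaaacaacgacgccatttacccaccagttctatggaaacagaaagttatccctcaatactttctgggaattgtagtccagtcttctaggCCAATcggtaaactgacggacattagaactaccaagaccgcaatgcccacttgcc

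In these stretches Hmgcs1 holds the sterol regulatory element 137 bases before the gene's start, with ATTGG at -176 and -45. Mvk holds 4 copies of ATTGG spaced by 53 bases (at -173, -120, -67 and -14), and a CCAAT between them at -50. Insig2 and Ggps1, which rose under Dex and under iBRD9 while most members fell, also hold CCAAT boxes in both orientations, 3 and 2 of them. The stretch shown is from the window nearest the annotated gene start. Further Insig2 windows, at chr1:121327975-121328274 and chr1:121327629-121327928, held a GC box and no CCAAT box. Which start these cells use was not tested. A match of letters is a description of the window and does not show binding in these cells.

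Per length of exon, the LPS-treated libraries of experiment 1 gave a wide range of levels. On the scale of CPM per kilobase of exon, Srebf2 itself was highest (60.3 ± 1.37, SD, n = 3), followed by Insig1 (42.8 ± 1.45), Hmgcs1 (40.5 ± 0.731), Cyp51 (39.3 ± 0.994) and Acly (35.9 ± 0.0916). Insig1, Hmgcs1 and Cyp51 lie close together, with Insig1 and Hmgcs1 differing by little more than their SDs. Fdps, at 21.5 ± 0.156, stood next, and Mvd, Msmo1 and Sqle followed between 17.9 and 16.03. At the low end were Dhcr7 (0.869 ± 0.0514), Acss2 (0.512 ± 0.0541) and Scd1 (0.0699 ± 0.00415), and Npc1l1 had no count.

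LPS raised the gene of the regulator and several enzymes, and lowered others, most of all Dhcr7 and the desaturase Fads1. Of 30 members tested, 11 were higher and 9 lower with LPS, 20 called in all, where 75.3% of all genes tested were called (36.1% higher and 39.3% lower), so the count of calls is no larger than the background. The median log2 fold change was 0.03, against -0.05 over all genes tested. In the mevalonate arm 4 of 8 rose and 1 fell, in the squalene to cholesterol arm 4 of 11 rose and 3 fell, 3 of the 4 control genes rose and 1 fell, and 4 of 6 fatty acid genes fell with none higher.

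Srebf2, the gene of SREBP2, was at 236, 224 and 217 CPM with vehicle and 441, 436 and 422 CPM with LPS. The groups do not overlap (log2 fold change 0.94, SE 0.0495, adjusted p = 5.1e-14). Scap, the escort of SREBP2, rose from 35.5, 38.2 and 34.3 CPM to 69.0, 70.6 and 73.9 CPM (0.98, SE 0.0524, adjusted p = 6.6e-14). Insig1, which retains the SCAP complex and is itself a target of SREBP2, rose from 74.5, 80.7 and 76.4 CPM to 133, 136 and 127 CPM (0.78, SE 0.0563, adjusted p = 1.9e-11). Its relative Insig2 went the other way, from 23.2, 24.8 and 25.6 CPM to 20.5, 21.4 and 22.3 CPM (-0.20, SE 0.0622, adjusted p = 0.0064). All libraries of the LPS group were above those of vehicle for Srebf2, Scap and Insig1 and below them for Insig2.

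Among the enzymes, Idi1, the isopentenyl diphosphate isomerase, rose the most, from 19.4, 22.3 and 22.8 CPM to 48.1, 47.7 and 43.0 CPM (1.11, SE 0.103, adjusted p = 1.6e-09). Hsd17b7, a reductase of the sterol ring, rose from 16.6, 20.0 and 19.3 CPM to 36.5, 37.6 and 33.0 CPM (0.94, SE 0.124, adjusted p = 4.2e-07). Hmgcs1, the synthase that makes HMG-CoA, rose from 95.7, 101.5 and 101.3 CPM to 183, 189.6 and 186 CPM (0.90, SE 0.0691, adjusted p = 5.0e-11). For these 3 genes every LPS library stood far above every vehicle library. Cyp51, the lanosterol demethylase (0.85), Fdft1, the squalene synthase (0.71), the sterol desaturase Sc5d (0.50), Fdps (0.44) and Ggps1, which makes geranylgeranyl diphosphate (0.28), also rose in log2 fold change.

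Dhcr7, a reductase of the last steps to cholesterol, fell from 19.9, 20.1 and 21.7 CPM to 5.23, 4.71 and 5.23 CPM (-2.03, SE 0.0878, adjusted p = 1.2e-15). Fads1, a desaturase of polyunsaturated fatty acids, fell from 146, 149 and 144 CPM to 48.5, 49.1 and 47.2 CPM (-1.60, SE 0.0564, adjusted p = 2.6e-17). For both genes every LPS library lay below every vehicle library. Smaller falls were called for Acss2 (-0.60), which makes acetyl-CoA from acetate, Fads2 (-0.55), the lanosterol synthase Lss (-0.51) and the mevalonate kinase Mvk (-0.42). Calls for the desaturase Scd1 (-0.85, -0.98 to -0.69 with adjusted p up to 0.16) and the sterol reductase Tm7sf2 (-0.30, -0.41 to -0.21 with adjusted p up to 0.21) rest on small differences and were lost in 17 and 13 of the 21 fits that left out 1 library. Msmo1 (-0.08) and Nsdhl (0.04), which remove methyl groups from sterols, the sterol isomerase Ebp (-0.16), Sqle (0.06), Mvd (-0.06), Pmvk (-0.08), Acat2 (-0.09), Stard4 (0.06), Fasn (0.17) and Acly (0.01) were not called. Without the first or the third vehicle library 11 members were higher and 7 lower.

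The direction of small LPS changes depends on the scaling: vehicle libraries had TMM factors between 1.27 and 1.29, against 0.892 to 0.905 with LPS. With library totals alone, the median over all genes moved from -0.05 to -0.56 and the members split into 7 higher and 20 lower in place of 11 and 9. Of 12662 genes, 2423 were then called higher and 8124 lower. Under that scaling the log2 fold change turned negative for Fdps (-0.070), Sc5d (-0.012), Ggps1 (-0.23), Sqle (-0.46), Nsdhl (-0.47), Stard4 (-0.46), Fasn (-0.34) and Acly (-0.50), and Fdft1 stayed positive but was not called (0.19, adjusted p = 0.059).

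**Figure D1:**
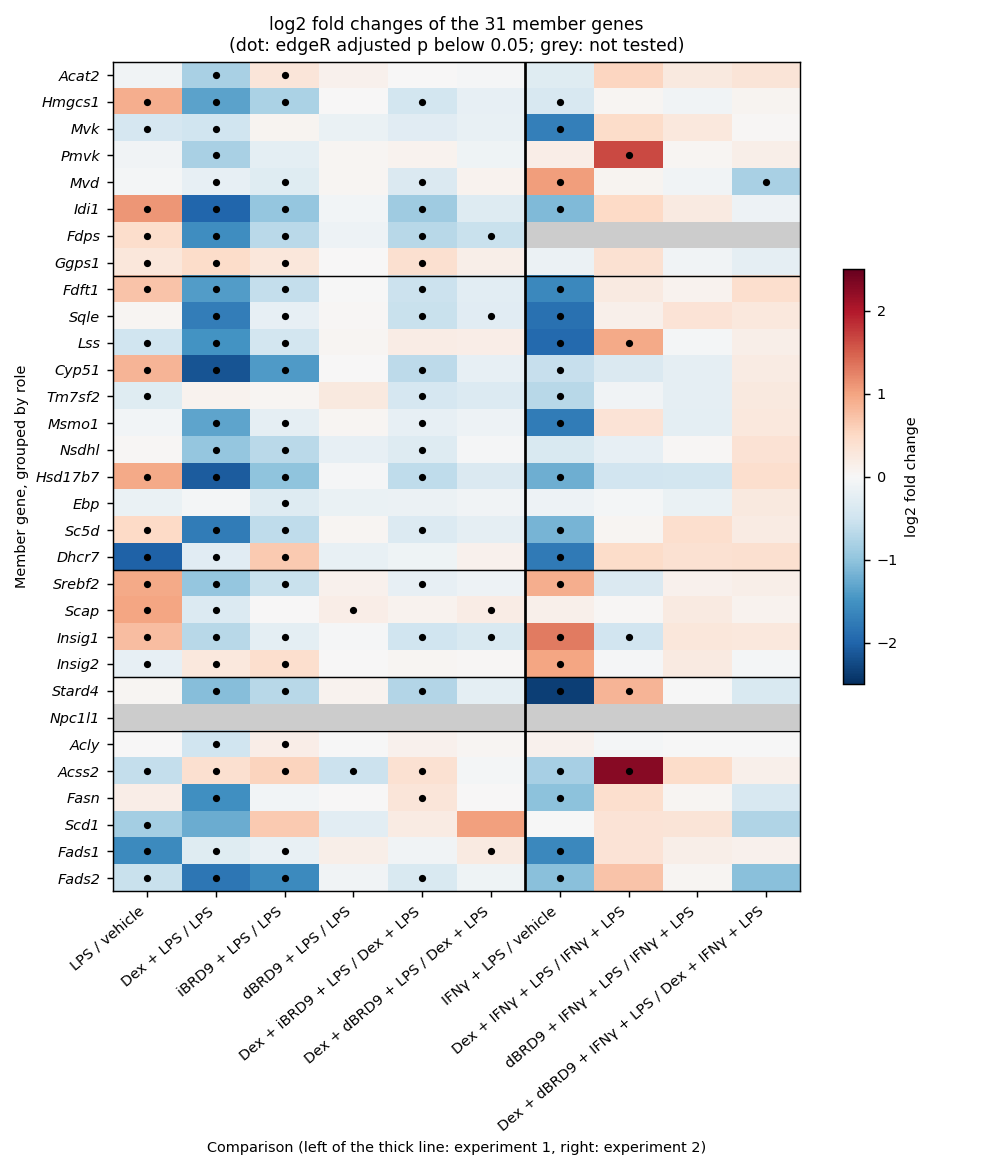
Colours give the log2 fold change of each member (rows, grouped by role) in 10 comparisons (columns), dots mark calls at an adjusted p below 0.05 and grey cells were not tested. The column of Dex + LPS against LPS holds 24 members called lower, and the columns with dBRD9 are nearly free of dots.

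Dex lowered most of the pathway under LPS. Of 30 members, 24 were lower and 3 higher in Dex + LPS than in LPS, 27 called in all, where 55.4% of all genes were called, 27.9% higher and 27.5% lower. The median log2 fold change was -0.97, against 0.01 over all genes tested. All arms took part, with 7 of 8 mevalonate genes, 9 of 11 genes from squalene to cholesterol, 3 of 4 control genes, Stard4 and 4 of 6 fatty acid genes lower. In the same libraries the summed level of macrophage markers was 22318.8 to 23223 CPM, against 14029 to 14580.1 CPM with LPS, with 4 of 7 called higher and 2 lower. Of 4 neutrophil markers tested 2 were lower, with summed levels of 8.86 to 10.8 CPM against 12.4 to 17.9 CPM. The part of these in the result was not tested.

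The largest falls were in sterol enzymes. Cyp51 was at 169.9, 178 and 172 CPM with LPS and at 36.9, 38.8 and 41.6 CPM with Dex + LPS (-2.15, SE 0.0768, adjusted p = 2.3e-16). Hsd17b7 went from 36.5, 37.6 and 33.0 CPM to 5.77, 9.79 and 10.1 CPM (-2.07, SE 0.139, adjusted p = 1.4e-11). Idi1 went from 48.1, 47.7 and 43.0 CPM to 9.84, 12.2 and 13.3 CPM (-1.98, SE 0.113, adjusted p = 8.0e-13). Each of these genes had risen with LPS, and with Dex each was below its vehicle level in every library. Fads2, the partner desaturase of Fads1, fell from 16.6, 16.8 and 14.8 CPM to 4.68, 4.34 and 4.66 CPM (-1.82, SE 0.117, adjusted p = 6.7e-12). Sc5d fell from 60.003, 57.8 and 59.7 CPM to 16.6, 16.4 and 20.0 CPM (-1.74, SE 0.088, adjusted p = 9.6e-14), and Sqle, the squalene epoxidase, from 93.3, 90.2 and 83.1 CPM to 23.6, 27.4 and 29.8 CPM (-1.72, SE 0.0876, adjusted p = 1.1e-13). No library of these genes in either group reached the range of the other group.

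Hmgcs1 fell from its LPS level to 66.7, 79.4 and 76.2 CPM (-1.33, SE 0.0706, adjusted p = 2.4e-13), and Fdps from 91.3, 90.4 and 90.1 CPM to 34.9, 27.4 and 30.7 CPM (-1.54, SE 0.0901, adjusted p = 1.2e-12). Fasn, the fatty acid synthase, fell from 105, 99.6 and 98.4 CPM to 27.4, 39.4 and 37.7 CPM (-1.54, SE 0.11, adjusted p = 4.3e-11). Its lowest value is that of the first Dex + LPS library, and the fall was present in the other Dex + LPS libraries too. Lss (-1.50), Fdft1 (-1.40), Msmo1 (-1.32), the sterol carrier Stard4 (-1.06), Nsdhl (-0.97), Acat2 (-0.81), the phosphomevalonate kinase Pmvk (-0.81), Mvk (-0.49), Acly (-0.49) and Fads1 (-0.31) also fell on the log2 scale. Mvd, the mevalonate diphosphate decarboxylase (-0.21), and Dhcr7 (-0.28) were called lower, but leaving out 1 library ended the call in 16 of 21 fits for Mvd (-0.33 to -0.14 with adjusted p up to 0.22) and in 3 for Dhcr7 (-0.34 to -0.19 with adjusted p up to 0.23). For Dhcr7 these were without the first LPS library, the third LPS library or the third Dex + LPS library.

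The control genes moved with the enzymes except for Insig2. Srebf2 fell to 208, 225 and 231 CPM (-0.97, SE 0.0497, adjusted p = 1.3e-13), which overlaps the vehicle libraries. Insig1 fell to 78.9, 81.0 and 86.4 CPM (-0.69, SE 0.0567, adjusted p = 4.9e-10), and Scap only to 57.7, 54.5 and 57.2 CPM (-0.33, SE 0.0519, adjusted p = 9.4e-06), which left Scap above every vehicle library. Insig2 rose to 25.8, 25.4 and 26.2 CPM (0.27, SE 0.0634, adjusted p = 8.9e-04).

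Besides Insig2, the members that rose with Dex were Ggps1 and Acss2. Ggps1 went from 11.001, 13.2 and 12.7 CPM to 15.95, 17.8 and 17.3 CPM (0.47, SE 0.0847, adjusted p = 6.6e-05), so that the branch enzyme toward protein prenylation moved against the enzymes of the same arm. Acss2 went from 4.59, 5.35 and 5.66 CPM to 7.28, 6.43 and 6.67 CPM (0.39, SE 0.131, adjusted p = 0.014), a call lost without the first LPS library (log2 fold change 0.30, adjusted p = 0.089). Ebp (-0.05), Tm7sf2 (0.10) and Scd1 (-1.24, adjusted p = 0.06) were not called. Without both the first Dex + LPS and the first Dex + dBRD9 + LPS library, 25 members were lower and 3 higher. Of all genes 59.3% were called in that fit. No called member moved by more than 0.24 on the log2 scale.

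**Figure D2:**
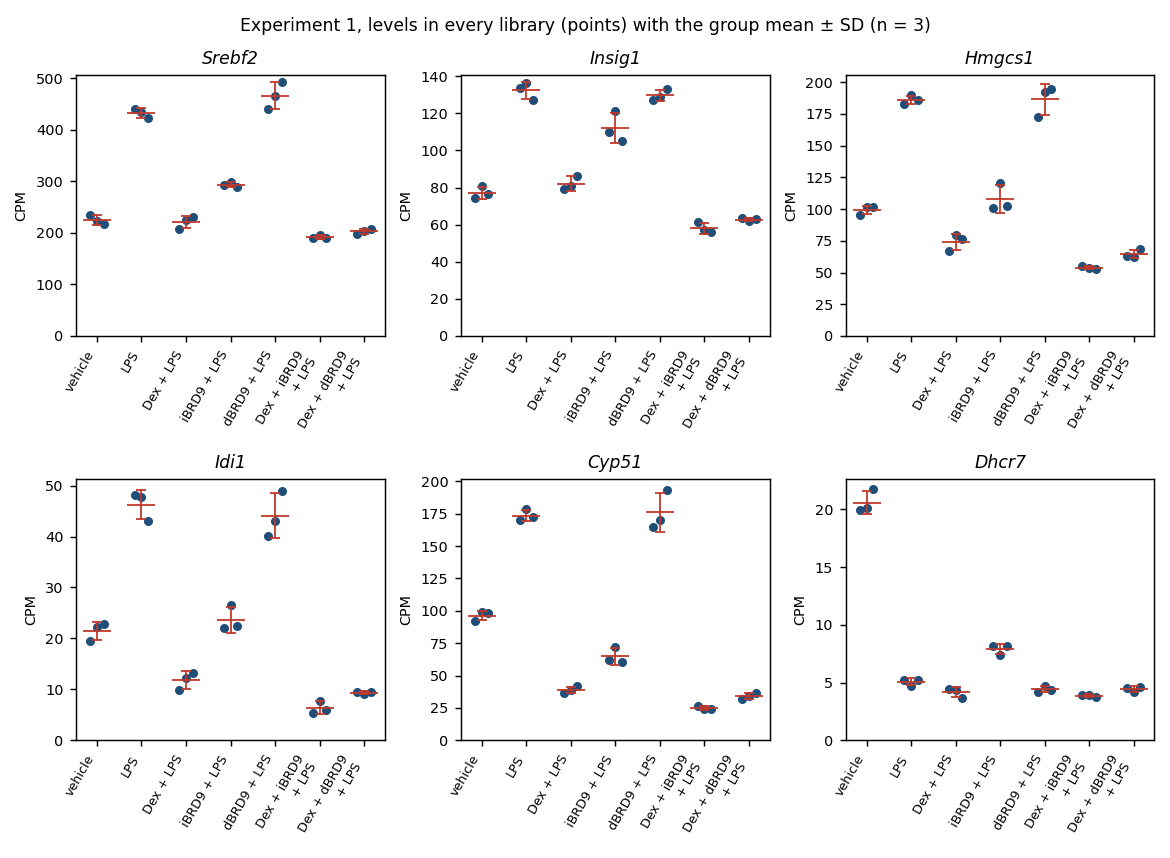
Points are CPM in every library of experiment 1 for 6 members, by group, with the mean and SD in red (n = 3). Srebf2, Insig1, Hmgcs1, Idi1 and Cyp51 are high with LPS and with dBRD9 + LPS and low in the groups with Dex, and Dhcr7 is high with vehicle only.

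The bromodomain inhibitor also lowered the pathway under LPS, but less evenly than Dex. With iBRD9 + LPS, 18 of 30 members were lower and 6 higher than with LPS, 24 called, where 62% of all genes were called, 31.4% higher and 30.5% lower. The median log2 fold change was -0.24, against 0.01 over all genes. The arm from squalene to cholesterol had 9 of 11 lower and 1 higher, the mevalonate arm 4 of 8 lower and 2 higher, the control genes 2 lower and 1 higher, and the fatty acid genes 2 lower and 2 higher. With library totals alone the split was 12 lower and 7 higher, where 5193 of 12662 genes were called higher and 3032 lower. The comparisons of Dex and of each compound with LPS share the same LPS libraries. In the same libraries the summed neutrophil markers were at 0.812 to 1.90 CPM, against 12.4 to 17.9 CPM with LPS, with 5 of 6 markers detected in both groups and Ly6g, a defining marker, at 0.0914 CPM or less in every library of experiment 1. The part of these in the result was not tested.

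Fads2 gave the largest fall, to 4.44, 6.00 and 5.64 CPM (-1.60, SE 0.111, adjusted p = 2.4e-11). Cyp51 fell to 61.6, 72.1 and 60.5 CPM (-1.42, SE 0.0736, adjusted p = 1.4e-13). Hsd17b7 fell to 16.9, 19.3 and 16.8 CPM (-1.01, SE 0.125, adjusted p = 3.0e-07). For these genes each iBRD9 + LPS library lay below each LPS library. Idi1 fell to 22.1, 26.6 and 22.4 CPM (-0.97, SE 0.103, adjusted p = 3.0e-08), Hmgcs1 to 100.6, 121 and 103 CPM (-0.79, SE 0.069, adjusted p = 1.3e-09) and Stard4 to 24.7, 28.8 and 22.5 CPM, from 43.0, 40.7 and 39.4 CPM (-0.70, SE 0.119, adjusted p = 2.5e-05). Idi1, Hmgcs1 and Hsd17b7 thus stood near their vehicle levels. Srebf2 fell to 293, 299.6 and 288 CPM (-0.56, SE 0.0492, adjusted p = 1.3e-09), which is still above each vehicle library. Insig1 fell slightly, to 109.9, 121 and 105 CPM (-0.24, SE 0.0558, adjusted p = 7.6e-04), and Scap, at 70.6, 71.6 and 71.5 CPM, gave 0.00 with a 95% interval from -0.10 to 0.11.

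Smaller falls on the log2 scale were called for Fdps (-0.67), Nsdhl (-0.66), Sc5d (-0.63), Fdft1 (-0.59), Lss (-0.46), Ebp (-0.31), Mvd (-0.31), Msmo1 (-0.22), Sqle (-0.20) and Fads1 (-0.19). Sqle lost its call in 5 of 21 fits that left out 1 library, with adjusted p up to 0.13, and Msmo1 lost it without the first iBRD9 + LPS library (-0.16, adjusted p = 0.054). Mvk (0.07), Pmvk (-0.25), Scd1 (0.66), Tm7sf2 (0.04) and Fasn (-0.07) were not called.

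The members that rose with iBRD9 included Dhcr7, from 5.23, 4.71 and 5.23 CPM to 8.20, 7.41 and 8.16 CPM (0.65, SE 0.095, adjusted p = 2.9e-06), Acss2, to 8.30, 6.75 and 7.78 CPM (0.56, SE 0.126, adjusted p = 5.9e-04), and Insig2, to 28.4, 26.9 and 30.9 CPM (0.43, SE 0.0622, adjusted p = 3.0e-06). All 3 had fallen with LPS, and with iBRD9 Insig2 exceeded its vehicle level while Dhcr7 remained far below it. Acat2, the thiolase at the entry of the pathway, rose to 16.2, 16.7 and 15.8 CPM, from 11.9, 14.3 and 13.1 CPM (0.31, SE 0.0953, adjusted p = 0.0081), a call lost without the first LPS library (0.24, adjusted p = 0.060). Ggps1 rose to 16.3, 14.1 and 14.7 CPM (0.29, SE 0.0841, adjusted p = 0.0046). Acly, which makes acetyl-CoA from citrate, was at 189.5, 189.7 and 189 CPM with LPS and 214, 208 and 212 CPM with iBRD9 + LPS (0.16, SE 0.065, adjusted p = 0.04), a call lost in 6 of 21 fits that left out 1 library (0.15 to 0.17 with adjusted p up to 0.097).

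Added to Dex, the inhibitor lowered many members further. Of 30 members, 16 were lower and 3 higher in Dex + iBRD9 + LPS than in Dex + LPS, 19 called, where 34.7% of all genes were called, 16.7% higher and 18% lower. The median log2 fold change was -0.25, against 0.01 over all genes, and with library totals alone the split was 12 lower and 5 higher. That scaling called 3089 of 12662 genes higher and 1656 lower. In a fit of only these groups 10 members were called, 9 lower and 1 higher. That fit called 963 of 11476 genes higher and 1320 lower. Without both libraries that stand apart 13 members were lower and 2 higher, where 37.7% of all genes were called. The combined group had the lowest mean of the 7 groups for 19 of the 30 members. The share of all genes with their lowest mean there was not counted, so this count is not read as a result about the members. In the same comparison 5 of 7 macrophage markers were called lower, with summed levels of 16843 to 18504 CPM against 22318.8 to 23223 CPM with Dex + LPS. Of 4 neutrophil markers tested 3 were lower, with sums over the list of 3.75 to 5.56 CPM against 8.86 to 10.8 CPM. The part of these in the result was not tested.

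Idi1 reached 5.36, 7.77 and 5.99 CPM (-0.89, SE 0.137, adjusted p = 2.6e-05) and Stard4 13.1, 10.7 and 11.5 CPM, from 15.5, 20.3 and 23.4 CPM with Dex + LPS (-0.74, SE 0.138, adjusted p = 2.2e-04). Fdps reached 21.0, 19.5 and 16.9 CPM (-0.70, SE 0.0977, adjusted p = 7.3e-06). Cyp51 reached 26.8, 24.2 and 23.9 CPM (-0.65, SE 0.0811, adjusted p = 1.7e-06). Sqle reached 18.7, 19.5 and 16.7 CPM (-0.56, SE 0.0951, adjusted p = 8.5e-05) and Fdft1, from 20.7, 17.5 and 17.1 CPM with Dex + LPS, 13.4, 13.1 and 11.7 CPM (-0.54, SE 0.108, adjusted p = 4.7e-04). For each of these genes the libraries of one group did not overlap those of the other. Insig1 fell to 61.4, 57.0 and 55.9 CPM (-0.50, SE 0.058, adjusted p = 5.9e-07), Hmgcs1 to 55.1, 53.8 and 52.7 CPM (-0.46, SE 0.0723, adjusted p = 3.2e-05) and Srebf2 to 190.1, 196 and 191 CPM (-0.20, SE 0.0497, adjusted p = 0.0029). Scap (62.5, 58.3 and 59.3 CPM, 0.09) and Insig2 (27.1, 26.3 and 26.5 CPM, 0.05) were not called.

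Hsd17b7 (-0.64), Mvd (-0.37) and Sc5d (-0.35) also fell, Sc5d with its call lost without the third Dex + LPS library (-0.25, adjusted p = 0.064). The calls of Tm7sf2 (-0.41), Fads2 (-0.38), Nsdhl (-0.33) and Msmo1 (-0.21) were lost in 4, 11, 5 and 2 of 21 fits that left out 1 library. Higher members were Ggps1, at 21.1, 23.9 and 22.3 CPM (0.40, SE 0.0808, adjusted p = 4.9e-04), Acss2, at 7.96, 8.03 and 10.6 CPM (0.38, SE 0.123, adjusted p = 0.019), and Fasn, at 43.8, 39.6 and 45.2 CPM (0.30, SE 0.113, adjusted p = 0.04). The Fasn call was lost in 4 of 21 fits that left out 1 library, with 0.15 and adjusted p = 0.21 without the first Dex + LPS library, and that of Acss2 was lost without the third Dex + iBRD9 + LPS library (0.23, adjusted p = 0.19) or the second Dex + LPS library (0.35, adjusted p = 0.055). Ggps1 was the only mevalonate gene to rise at both steps, and its combined group had the highest mean of all.

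An interaction test asked whether iBRD9 changed a member by a different amount with Dex than without it. It called 5 members higher and 4 lower of 30, 9 in all, where 33.2% of all genes were called (17.3% higher and 16% lower). The count of calls is thus no larger than the background. A positive value means that the change with Dex lay above that without Dex. Fads2 fell by 1.60 on the log2 scale without Dex and by 0.38 with it, an interaction of 1.21, SE 0.184, adjusted p = 1.8e-05. Cyp51 fell by 1.42 and by 0.65 (0.78, SE 0.109, adjusted p = 6.8e-06), Lss by 0.46 without Dex while it gave 0.18 with Dex (0.63, SE 0.184, adjusted p = 0.01), Srebf2 by 0.56 and by 0.20 (0.36, SE 0.0699, adjusted p = 3.6e-04) and Hmgcs1 by 0.79 and by 0.46 (0.33, SE 0.0997, adjusted p = 0.014). Dex alone had lowered these 5 genes. Of the 4 with negative interactions, it had lowered Dhcr7, Sqle and Insig1 and raised Insig2. Dhcr7 rose by 0.65 without Dex and gave -0.10 with it (-0.76, SE 0.147, adjusted p = 3.4e-04), and Insig2 rose by 0.43 and gave 0.05 (-0.38, SE 0.0883, adjusted p = 0.0018). Sqle and Insig1 fell more with Dex, with interactions of -0.36 (adjusted p = 0.031) and -0.26 (adjusted p = 0.015). Calls were lost when 1 library was left out in 6 of 21 fits for Sqle, 2 for Insig1 (-0.31 to -0.20 with adjusted p up to 0.055), 1 for Lss (without the third Dex + iBRD9 + LPS library, 0.42, adjusted p = 0.068) and 1 for Hmgcs1 (without the first iBRD9 + LPS library, 0.27, adjusted p = 0.052). Without both libraries that stand apart 13 members were called, 8 higher and 5 lower, where 39.8% of all genes were called.

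**Figure D3:**
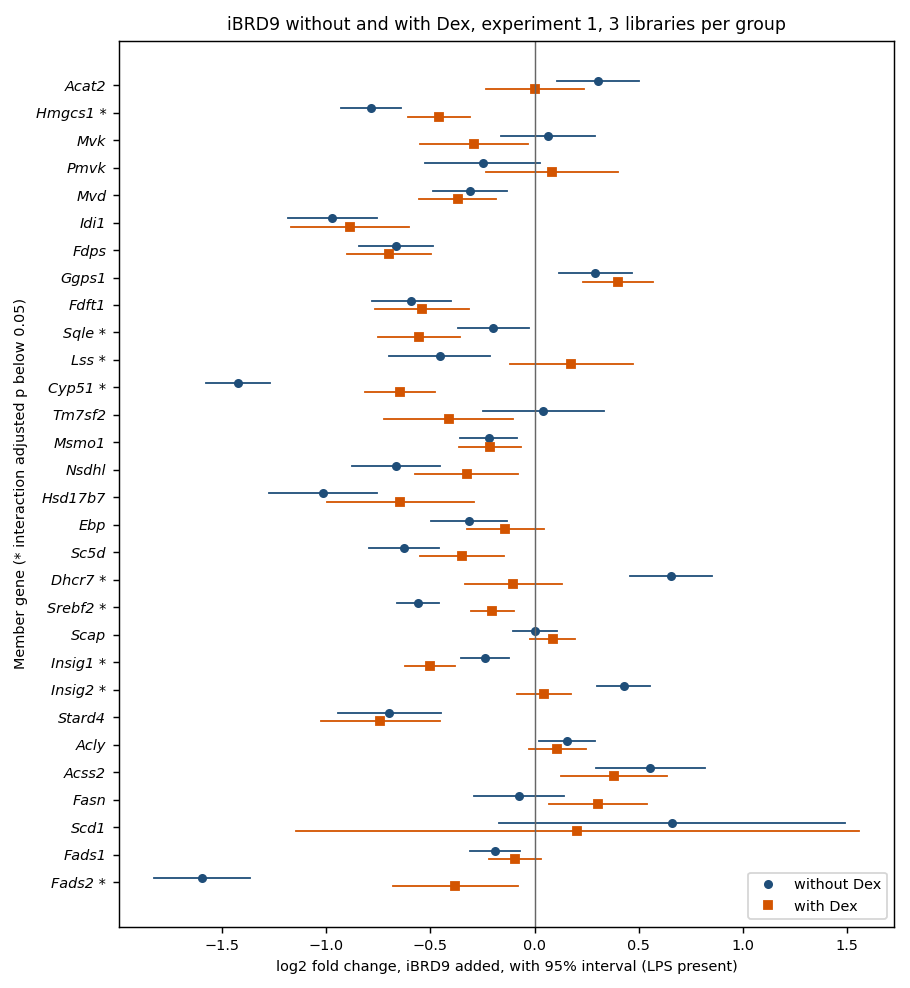
Each row is a member, with the log2 fold change that iBRD9 gave without Dex (circles) and with Dex (squares), bars being 95% intervals. Stars mark the 9 members whose interaction was called, with the widest gaps at Fads2, Cyp51 and Dhcr7.

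The degrader gave little change in the same genes. With dBRD9 + LPS against LPS, 1 member was higher and 1 lower of 30, where 16.6% of all genes were called (6.64% higher and 9.97% lower). The median log2 fold change was 0.01, against 0 over all genes. In simulated data of these libraries, changes were planted upward in randomly drawn genes, at levels averaged over all groups. The test recovered 66% of planted 1.5-fold and 88% of 2-fold changes, with 12260 genes tested. Recovery at the members' own levels was not counted. Scap was higher, at 77.9, 78.7 and 81.5 CPM against 69.0, 70.6 and 73.9 CPM (0.16, SE 0.0512, adjusted p = 0.037), and Acss2 lower, at 3.74, 3.28 and 3.72 CPM against 4.59, 5.35 and 5.66 CPM (-0.54, SE 0.143, adjusted p = 0.011). Both calls are weak. That of Scap was lost in 5 of 21 fits that left out 1 library (0.14 to 0.18 with adjusted p up to 0.13), and that of Acss2 without the third LPS library (-0.48, adjusted p = 0.0502) or the second dBRD9 + LPS library (-0.47, adjusted p = 0.059).

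The genes that Dex and iBRD9 lowered most stayed within a narrow interval. Cyp51 was at 165, 169.8 and 193 CPM with dBRD9 + LPS, with a log2 fold change of 0.02 and a 95% interval from -0.13 to 0.17. Hmgcs1 was at 173, 192 and 195 CPM (0.00, from -0.14 to 0.15), and Idi1 at 40.2, 43.1 and 49.0 CPM (-0.07, from -0.28 to 0.14). Srebf2 was at 440.1, 467 and 492 CPM (0.11, from 0.00 to 0.21), Insig1 at 127, 129 and 133 CPM and Insig2 at 22.5, 20.6 and 21.7 CPM, none of them called. For each of these genes the libraries of one group overlapped those of the other. The count of called members was 6, 3 higher and 3 lower, in a fit of only the groups compared. It was 4, 3 higher and 1 lower, without the first Dex + LPS library or with library totals alone. The fit of only the groups compared called 1470 of 11691 genes higher and 1835 lower. Without the first Dex + LPS library 24.2% of all genes were called, and with library totals alone 1402 of 12662 higher and 1039 lower. None of these counts of members is larger than its background. The count of called members ranged from 0 to 4 over the fits that left out 1 library. It was 0 without the second dBRD9 + LPS library and 1 without any 1 of the LPS libraries or without the third dBRD9 + LPS library.

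Added to Dex, dBRD9 lowered 3 members and raised 2 of 30, where 15.8% of all genes were called (6.51% higher and 9.28% lower). The count of calls is near that background. Fdps fell from 34.9, 27.4 and 30.7 CPM to 21.1, 21.7 and 20.8 CPM (-0.55, SE 0.0954, adjusted p = 2.8e-04) and Insig1 from 78.9, 81.0 and 86.4 CPM to 63.4, 61.8 and 62.8 CPM (-0.39, SE 0.0575, adjusted p = 3.9e-05). For both genes every library with dBRD9 lay below every Dex + LPS library. Sqle went from 23.6, 27.4 and 29.8 CPM to 20.4, 20.4 and 25.4 CPM (-0.29, SE 0.0923, adjusted p = 0.035), with overlap. Scap was at 61.6, 63.5 and 66.6 CPM (0.18, SE 0.0519, adjusted p = 0.021) and Fads1 at 44.7, 46.7 and 45.3 CPM, from 39.5, 37.4 and 40.1 CPM (0.22, SE 0.0583, adjusted p = 0.01), both higher. Leaving out 1 library ended the call of Sqle in 4 fits (-0.40 to -0.21 with adjusted p up to 0.16) and that of Scap in 3 (0.15 to 0.20 with adjusted p up to 0.11). Srebf2, at 198, 204 and 208 CPM (-0.12), Hmgcs1, at 63.3, 62.2 and 68.4 CPM (-0.20), and Insig2, at 27.1, 26.6 and 25.2 CPM (0.03), were not called.

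This comparison depends on 1 library. Without the first Dex + LPS library 9 members were lower and 2 higher, where 19.9% of all genes were called. Newly called were Hmgcs1 (-0.27, adjusted p = 0.0028), Hsd17b7 (-0.60, adjusted p = 0.0011), Idi1 (-0.45, adjusted p = 0.0090), Srebf2 (-0.17, adjusted p = 0.0096), Stard4 (-0.40, adjusted p = 0.011) and Cyp51 (-0.24, adjusted p = 0.030). Without both libraries that stand apart the count was 7 lower and 2 higher, as with DESeq2, and in a fit of only the groups compared 2 were lower. Of all genes 17.2% were called without both libraries. DESeq2 called 680 of 12423 genes higher and 1451 lower, and the fit of only the groups compared 142 of 11634 higher and 437 lower. The count of members was 3 without the second Dex + LPS or the second Dex + dBRD9 + LPS library. The interaction of Dex and dBRD9 was called for 1 member, Insig1 (-0.36, SE 0.0801, adjusted p = 0.012), where 3.39% of all genes were called (1.82% higher and 1.57% lower). It was called for 6 members without the first Dex + LPS library, 2 without the second Dex + LPS library, 2 without the first dBRD9 + LPS library and 3 without both that stand apart, all lower. Of all genes 7.39% were called without both, and 6.91% without the first Dex + LPS library. Whether Hmgcs1, Idi1, Cyp51, Hsd17b7, Srebf2 and Stard4 passed the test when dBRD9 was added to Dex thus differed with that library kept or left out.

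The inhibitor and the degrader were also set against each other, at doses that are not matched. With iBRD9 + LPS, 18 of 30 members were lower and 5 higher than with dBRD9 + LPS, where 55.6% of all genes were called (28.3% higher and 27.3% lower). With library totals alone 16 members were lower and 8 higher, where 4341 of 12662 genes were called higher and 2885 lower. The largest differences were in Fads2 (-1.50, SE 0.112, adjusted p = 1.3e-10), Cyp51 (-1.44, SE 0.0736, adjusted p = 1.9e-13) and Acss2 (1.09, SE 0.134, adjusted p = 3.8e-07). Acss2 was lowered by dBRD9 and raised by iBRD9, so its levels, given above, do not overlap between the compounds. Members higher with iBRD9 were Acss2, Dhcr7 (0.84), Insig2 (0.41), Ggps1 (0.28) and Acly (0.16), with Acly called in only part of the fits that left out 1 library (14 of 21 lost) and Ggps1 not without the first iBRD9 + LPS library (0.21, adjusted p = 0.064). Srebf2 (-0.67), Hmgcs1 (-0.79), Idi1 (-0.90), Hsd17b7 (-0.98), Stard4 (-0.78), Insig1 (-0.21) and Scap (-0.16) were lower. Sqle (-0.23) lost its call without the first iBRD9 + LPS or the third dBRD9 + LPS library.

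In experiment 2 the stimulus was IFNγ with LPS, and more members fell than rose. Of 29 members, 4 were higher and 17 lower with IFNγ + LPS than with vehicle, 21 called, where 68.5% of all genes were called (32.8% higher and 35.6% lower). The median log2 fold change was -0.69, against -0.11 over all genes, which moved to -0.76 with library totals alone, where 3 members were higher and 24 lower. That scaling called 2633 of 13313 genes higher and 7819 lower. The arm from squalene to cholesterol had 9 of 11 lower and none higher, the mevalonate arm 3 of 7 lower and 1 higher, the fatty acid genes 4 of 6 lower, and the control genes 3 of 4 higher. Stromal markers were at 32.3 to 66.1 CPM summed over 4 genes in experiment 2 and at 0.228 CPM or less in experiment 1, and their part in the difference was not tested.

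Stard4 was at 13.2 and 13.4 CPM with vehicle and 2.85 and 2.29 CPM with IFNγ + LPS (-2.36, SE 0.215, adjusted p = 7.5e-08). Lss was at 7.91 and 10.95 CPM and 2.61 and 2.29 CPM (-1.94, SE 0.236, adjusted p = 2.3e-06). Sqle was at 32.7 and 29.5 CPM and 8.98 and 8.05 CPM (-1.87, SE 0.148, adjusted p = 1.4e-08). In each case both stimulated libraries were far below both vehicle libraries. Dhcr7 fell from 12.3 and 12.5 CPM to 4.92 and 2.21 CPM (-1.77, SE 0.268, adjusted p = 2.5e-05), Msmo1 from 60.5 and 49.0 CPM to 16.5 and 15.9 CPM (-1.76, SE 0.152, adjusted p = 4.2e-08) and Mvk from 16.1 and 13.1 CPM to 4.73 and 4.21 CPM (-1.70, SE 0.197, adjusted p = 1.3e-06). The Dhcr7 libraries with IFNγ + LPS differ widely from each other, yet both lie below vehicle. Fdft1 (-1.61), Fads1 (-1.61), Hsd17b7 (-1.22), Sc5d (-1.17), Idi1 (-1.10), Fasn (-1.03), Acss2 (-0.84) and Cyp51 (-0.57) also fell. Fads2 (-1.04), Tm7sf2 (-0.69) and Hmgcs1, from 42.2 and 38.9 CPM to 31.5 and 29.5 CPM (-0.41), were called lower, but each lost its call with DESeq2, without either IFNγ + LPS library and without 1 of the vehicle libraries, with adjusted p up to 0.15. Idi1 lost its call without the second IFNγ + LPS library (-1.01, adjusted p = 0.054). In each of these fits the group is left with 1 library, which is assumed to vary like the other groups.

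Of the control genes, 3 of 4 were called higher. Insig1 rose from 33.9 and 35.2 CPM to 82.2 and 87.9 CPM (1.30, SE 0.113, adjusted p = 4.5e-08), Insig2 from 22.9 and 22.4 CPM to 44.8 and 44.4 CPM (0.98, SE 0.111, adjusted p = 1.0e-06) and Srebf2 from 75.4 and 94.1 CPM to 160.3 and 157 CPM (0.90, SE 0.128, adjusted p = 1.2e-05). With library totals alone Srebf2 gave 0.25 and was not called (adjusted p = 0.11). Mvd was the only enzyme called higher, from 14.9 and 11.3 CPM to 28.0 and 26.2 CPM (1.05, SE 0.153, adjusted p = 1.6e-05). Scap (38.0 and 37.8 CPM, then 43.1 and 39.9 CPM, 0.13) was not called, and with library totals alone the log2 fold changes of Scap (-0.52), Pmvk (-0.47) and Acly (-0.55) turned negative.

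Set side by side, the 2 stimuli gave the same call for some members and opposite calls for others. Of 29 members tested in both experiments, 2 were called higher in both (Srebf2 and Insig1) and 7 lower in both, among them Dhcr7 (-2.03 and -1.77) and Fads1 (-1.60 and -1.61). Another 6 were called higher with LPS and lower with IFNγ + LPS: Hmgcs1, Idi1, Fdft1, Cyp51, Hsd17b7 and Sc5d. Insig2 alone was called lower with LPS and higher with IFNγ + LPS. Of all genes, 75.3% were called with LPS and 68.5% with IFNγ + LPS. The share of all genes with each pair of calls was not counted, so these counts are not read as a result about the members. The difference between experiments was not tested, and the added IFNγ, the depth and the culture cannot be told apart in it.

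**Figure D4:**
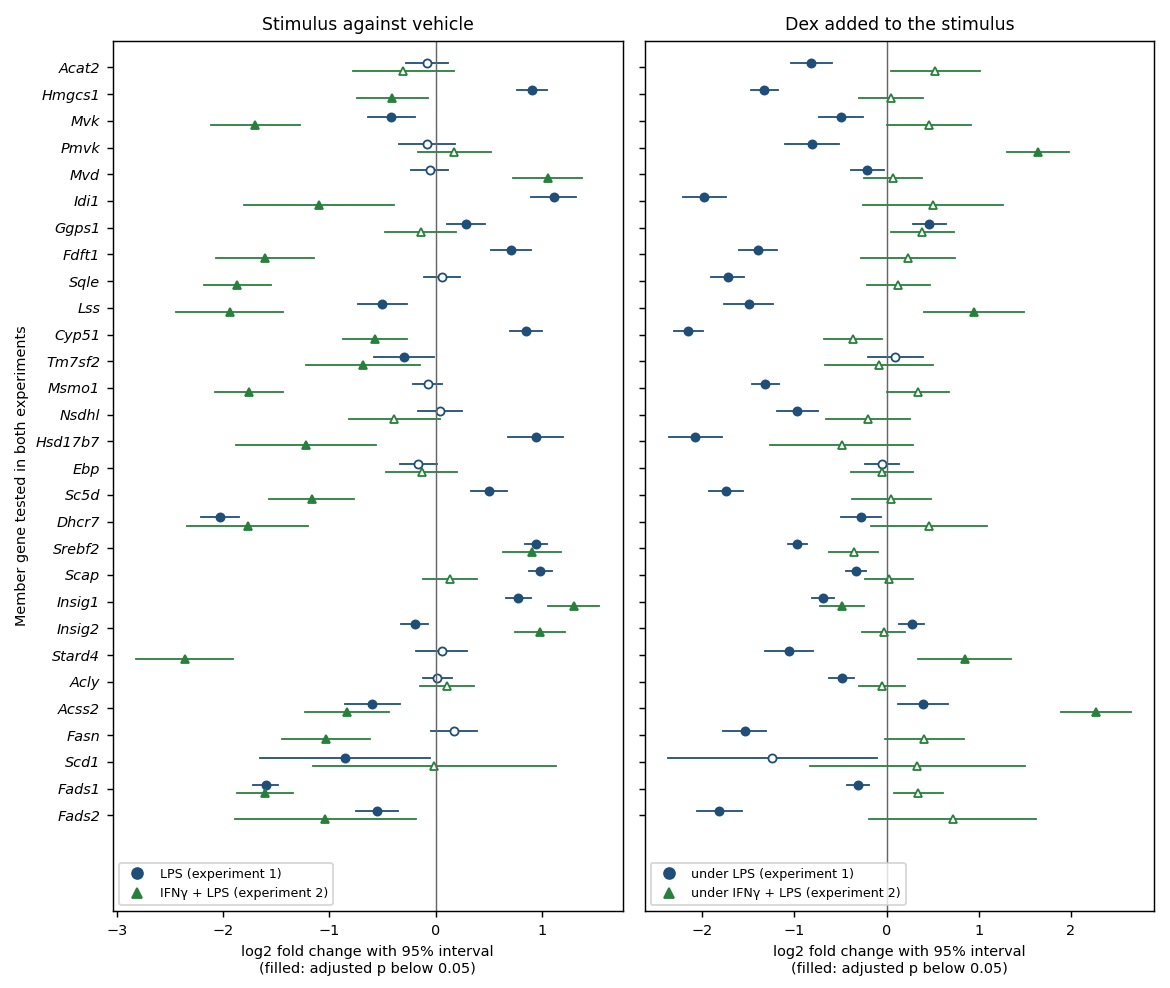
Log2 fold changes with 95% intervals of the 29 members tested in both experiments, for the stimulus against vehicle (left) and for Dex added to the stimulus (right), filled where called. On the right nearly all circles (experiment 1) lie left of 0, while the triangles (experiment 2) scatter about 0 with Acss2 and Pmvk far to the right.

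Under IFNγ + LPS, Dex did not give the broad fall seen under LPS. Of 29 members, 4 were higher and 1 lower with Dex + IFNγ + LPS than with IFNγ + LPS, where 19.9% of all genes were called (10.7% higher and 9.21% lower), and the median log2 fold change was 0.23, against 0.03 over all genes. The libraries with Dex lay above those without it for 13 members and below for 4, where 60% of all genes had no overlap (55.7% for Dex + LPS against LPS in experiment 1). In the same comparison 3 of 5 neutrophil markers tested were lower, with summed levels of 8.91 to 11.5 CPM with Dex against 24.9 to 25.3 CPM without it, and Ly6g had no count in experiment 2. Of 4 stromal markers 2 were lower, with sums of 38.0 to 45.2 CPM against 59.4 to 66.1 CPM. None of the 7 macrophage markers was called. The part of these in the result was not tested. Acss2 was at 5.28 and 4.87 CPM without Dex and 25.0 and 24.4 CPM with it (2.28, SE 0.18, adjusted p = 1.7e-07). Pmvk was at 15.8 and 16.8 CPM and 46.1 and 55.7 CPM (1.65, SE 0.157, adjusted p = 1.3e-06). Both libraries with Dex were thus far above those without it, and above vehicle too. Lss rose from 2.61 and 2.29 CPM to 5.31 and 4.23 CPM (0.95, SE 0.256, adjusted p = 0.014) and Stard4 from 2.85 and 2.29 CPM to 4.76 and 4.57 CPM (0.85, SE 0.238, adjusted p = 0.018), at low counts. Insig1 fell to 61.0 and 60.9 CPM (-0.48, SE 0.112, adjusted p = 0.0056). Leaving out 1 library ended the call of Lss without either IFNγ + LPS library or the first Dex + IFNγ + LPS library (0.76 to 1.11 with adjusted p up to 0.13), that of Stard4 without the second IFNγ + LPS library or either Dex + IFNγ + LPS library (0.71 to 1.03 with adjusted p up to 0.16), and that of Insig1 without the second IFNγ + LPS library (-0.43, adjusted p = 0.081). Without that IFNγ + LPS library only Acss2 and Pmvk were called.

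Srebf2 was at 134 and 113 CPM with Dex, below both IFNγ + LPS libraries, but was not called (-0.36, SE 0.127, adjusted p = 0.059). It was called with DESeq2 (-0.41, adjusted p = 0.026), without either vehicle library and without the first Dex + IFNγ + LPS library. Hmgcs1, at 30.7 and 32.4 CPM, gave 0.05 with a 95% interval from -0.29 to 0.39, Sqle, at 9.59 and 9.07 CPM, 0.13 (from -0.21 to 0.47), and Cyp51, at 16.6 and 14.5 CPM, -0.37 (from -0.68 to -0.05). These intervals do not reach the log2 fold changes of -1.33, -1.72 and -2.15 that Dex gave under LPS. Insig2 was at 43.5 and 43.7 CPM and Scap at 45.1 and 39.6 CPM, both without a call.

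Of the 29 members tested in both experiments, 19 were called lower with Dex in experiment 1 and were not called in experiment 2. Pmvk, Lss and Stard4 were called lower in experiment 1 and higher in experiment 2, Insig1 was lower in both and Acss2 higher in both. Dex changed the call of 55.4% of all genes in experiment 1 and 19.9% in experiment 2. How many of all genes had each pair of calls was not counted, so these counts are not read as a result about the members. The levels before Dex differed as well. Sqle, for example, was at 93.3, 90.2 and 83.1 CPM with LPS in experiment 1 and at 8.98 and 8.05 CPM with IFNγ + LPS in experiment 2, in tables that were scaled separately. The difference between experiments was not tested.

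**Figure D5:**
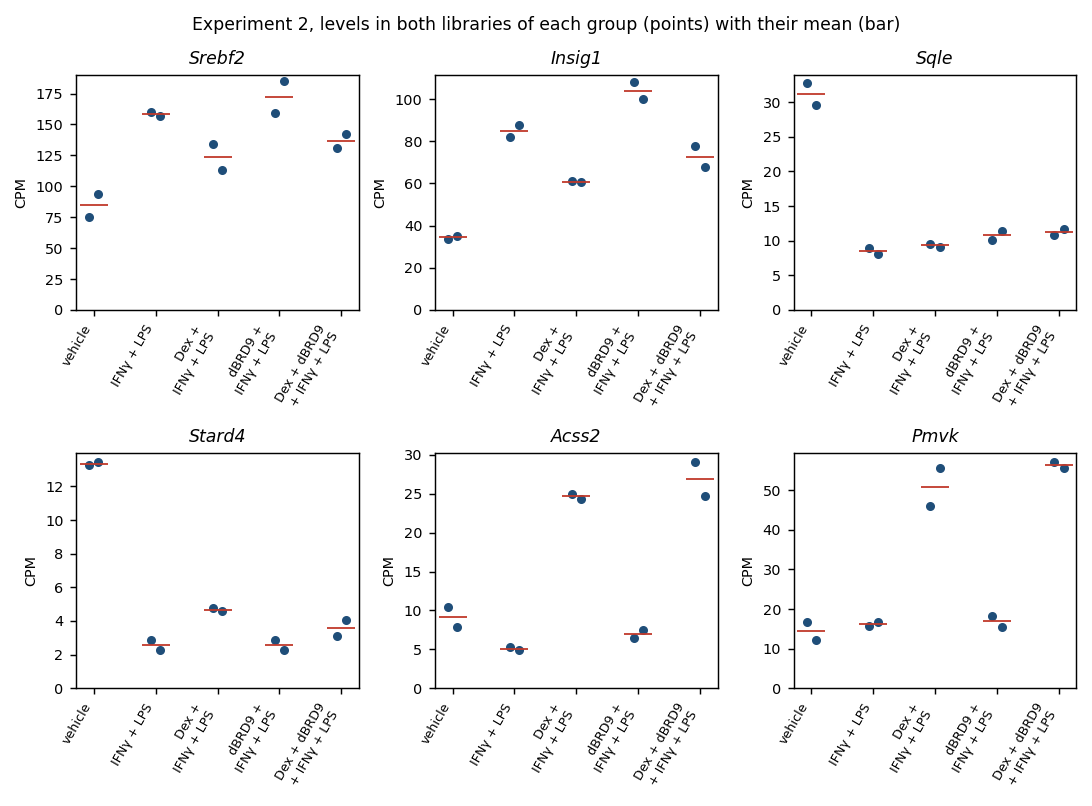
Points are CPM in both libraries of each group of experiment 2 for 6 members, with their mean as a bar. Sqle and Stard4 are highest with vehicle, Srebf2 and Insig1 are lowest there, and Acss2 and Pmvk are highest in both groups with Dex.

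The degrader gave no called member under IFNγ + LPS in edgeR's test (0 of 29, where 1.83% of all genes were called, 0.819% higher and 1.01% lower). DESeq2 also called 0. At an unadjusted p under 0.05 in edgeR's test there were 2 of 29, Insig1 and Acss2 (0.45). The share of all genes at that threshold was not counted, so this count is not read as a result about the members. In simulated data of these libraries, with changes planted upward in randomly drawn genes, 33% of 1.5-fold and 75% of 2-fold changes were recovered. There were 12601 genes tested. Most planted 1.5-fold changes were thus missed at this depth and number of libraries. Insig1 gave 108 and 100.2 CPM against 82.2 and 87.9 CPM (0.29, SE 0.11, adjusted p = 0.27), and Srebf2 159 and 185 CPM (0.12). Both Insig1 libraries lay above those of the stimulus alone, while those of Srebf2 overlapped. Hmgcs1 was at 34.7 and 22.4 CPM, Insig2 at 52.6 and 51.4 CPM and Scap at 45.3 and 51.3 CPM.

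With Dex present, dBRD9 lowered 1 of 29 members under IFNγ + LPS, where 1.4% of all genes were called (0.233% higher and 1.16% lower). Mvd went from 29.0 and 27.9 CPM to 16.8 and 15.6 CPM (-0.81, SE 0.154, adjusted p = 0.012), with both libraries near the vehicle level of the same experiment. The call was lost without the first Dex + IFNγ + LPS library (-0.79, adjusted p = 0.075), the first (-0.86, adjusted p = 0.14) or the second (-0.76, adjusted p = 0.21) Dex + dBRD9 + IFNγ + LPS library. Under LPS in experiment 1 the same addition gave Mvd a log2 fold change of 0.08. Srebf2 was at 131 and 142 CPM, Insig1 at 77.7 and 67.7 CPM, Insig2 at 41.7 and 42.8 CPM, Scap at 43.5 and 46.1 CPM and Hmgcs1 at 32.6 and 33.1 CPM, none of them called. The interaction of Dex and dBRD9 was called for 0 of 29 members in edgeR's test and in DESeq2, where 0.00751% of all genes were called, and at an unadjusted p under 0.05 for 2, Mvd (-0.72) and Msmo1 (0.51). These last genes and those named at an unadjusted p above were chosen after their values were seen. For the interaction too, the share of all genes at an unadjusted p under 0.05 was not counted, and the count is not read as a result.

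Other genes of the SREBP pathway, which are not members, showed a less uniform picture. Of 16 tested, among them Srebf1, Lbr, the processing proteases and further fatty acid synthesis genes, Dex lowered 8 and raised 5 under LPS (55.4% of all genes called, median -0.32, against -0.97 for the members), and iBRD9 lowered 5 and raised 8 (62% of all genes called, median 0.13, against -0.24). LPS alone raised 4 and lowered 8, where 75.3% of all genes were called, dBRD9 raised 1 and lowered 2 (16.6% of all genes called), and IFNγ + LPS raised 3 and lowered 10 (68.5%). For LPS and dBRD9 these counts are near the background. Srebf1, the gene of the related factor SREBP1, gave -0.03 with LPS, 0.21 with Dex (adjusted p = 0.0033) and 0.22 with iBRD9 (adjusted p = 0.0015), where Srebf2 gave 0.94, -0.97 and -0.56.

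Among 12 genes of oxysterol synthesis, sterol efflux and sterol handling, Dex raised 9 and lowered 3, where 55.4% of all genes were called, and iBRD9 raised 6 and lowered 3, where 62% were called. The count with iBRD9 is near that background. Ch25h, the hydroxylase that makes an oxysterol able to restrain SREBP2 processing, rose with LPS (log2 fold change 6.23, adjusted p = 2.4e-13) and with IFNγ + LPS (3.99, adjusted p = 1.7e-07). Under LPS it fell, with log2 fold changes of -4.11 with Dex, -5.28 with iBRD9 and -1.83 with dBRD9, and under IFNγ + LPS with -1.66 for Dex and -1.66 for dBRD9. These comparisons share control libraries within each experiment. Nr1h3, the gene of the oxysterol receptor LXRα, rose by 1.24 with LPS and by 1.33 with Dex, and fell with iBRD9 (-1.66) and dBRD9 (-1.02).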

How the data were processed

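RNA was sequenced from cultured mouse macrophages in 21 libraries of experiment 1 and 10 of experiment 2. The authors deposited 1 table of raw counts per gene for each experiment, and no other values were used. The submitters' processing notes name fastp, STAR, DESeq2 and mm10 without giving their roles, and the sources used here do not give the counting step, its annotation or whether it used strand.

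From the counts, genes were kept with filterByExpr (count minimum 10, total 15), which left 12662 genes in experiment 1 and 13313 in experiment 2. Libraries were scaled by TMM, and each experiment was fitted on its own over all its groups with edgeR 4.0.16 (limma 3.58.1, R 4.3.3), using the quasi-likelihood test and Benjamini-Hochberg adjustment over all genes tested, without a replicate block. The biological coefficient of variation was 6.79% in experiment 1 and 10.6% in experiment 2, with 14 and 5 residual degrees of freedom. Errors are SD over libraries or the SE of a log2 fold change. The same code was tested on simulated counts of these libraries. Alternatives were DESeq2 1.42.0, library totals alone, no filter, a fit of only the groups compared, a replicate block and leaving out libraries.

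The members and lists were chosen with earlier results of these data known. Every member with a count may be named. Values in every library are given for Srebf2, Scap, Insig1, Insig2 and Hmgcs1, for the 6 largest called changes of a comparison at 10 CPM or more in the higher group, and for called members that moved against the majority. Exon overlaps and exon lengths come from the GENCODE annotation, and promoter windows from RefSeq on GRCm38.p6.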

Additional observations from a re-analysis of the deposited data

Results flagged for a closer look

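In experiment 1 the effect of iBRD9 differed with and without Dex by an interaction test for 9 of 30 members. Of all genes 33.2% were called, so the count is no larger than the background. The log2 interaction in edgeR's quasi-likelihood test was 1.21 for Fads2, 0.78 for Cyp51, 0.63 for Lss, 0.36 for Srebf2 and 0.33 for Hmgcs1, where iBRD9 lowered the gene less, or not at all, once Dex was present. It was -0.76 for Dhcr7 and -0.38 for Insig2, which rose with iBRD9 only in the absence of Dex, and -0.36 for Sqle and -0.26 for Insig1, which fell further with Dex. The effect of dBRD9 differed with Dex for Insig1 alone, by -0.36, where 3.39% of all genes were called. A count of 1 of 30 is near that background.

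The effect of Dex had opposite signs in the 2 experiments for 12 members, with no overlap between the libraries with and without Dex in either experiment, among 29 tested in both, where 10.1% of 11945 genes tested in both did the same. Absence of overlap alone is common with groups of 2 libraries. In experiment 2, 60% of all genes had none. The difference between the experiments was not tested. In log2 fold change, experiment 1 then experiment 2, Pmvk gave -0.81 and 1.65, Lss -1.50 and 0.95, and Stard4 -1.06 and 0.85, each called in both. Idi1 gave -1.98 and 0.50, Fads2 -1.82 and 0.72, Sqle -1.72 and 0.13, Fdft1 -1.40 and 0.23, Msmo1 -1.32 and 0.34, Acat2 -0.81 and 0.53, Mvk -0.49 and 0.46, and Fads1 -0.31 and 0.34, with the second value not called. Insig2 went the other way, with 0.27 and -0.032, the second not called.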

How the results depend on the processing

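Counts of called members stayed within 1.5 times under every alternative for LPS, Dex, iBRD9, iBRD9 against dBRD9, the interaction of Dex and iBRD9, and IFNγ + LPS. The exceptions were these. For dBRD9 + LPS the count of 2 became 4 with library totals alone or without both libraries that stand apart, 1 with no filter and 6 in a fit of only the groups compared. For dBRD9 added to Dex the count of 5 became 9 with DESeq2 or without both libraries that stand apart, and 2 in a fit of only the groups compared. The interaction of Dex and dBRD9, with 1 member, became 3 with DESeq2 or without both libraries, and 2 with no filter. For iBRD9 added to Dex the count of 19 became 10 in a fit of only the groups compared. The share of all genes called moved as well. Without both libraries that stand apart it went from 16.6% to 27% for dBRD9 + LPS and from 15.8% to 17.2% for dBRD9 added to Dex. For the interaction of Dex and dBRD9 it went from 3.39% to 7.39%. Leaving out 1 library gave 0 to 4 members for dBRD9 + LPS, 3 to 11 for dBRD9 added to Dex, 1 to 6 for the interaction of Dex and dBRD9, 2 to 7 for Dex in experiment 2, and 0 to 1 for dBRD9 added to Dex in experiment 2. In experiment 2 such a fit leaves a group with 1 library, which is assumed to vary like the other groups. The cause of these shifts was not tested. With library totals alone the log2 fold change turned negative under LPS for Fdps (-0.070), Sqle (-0.46), Nsdhl (-0.47), Sc5d (-0.012), Stard4 (-0.46), Ggps1 (-0.23), Fasn (-0.34) and Acly (-0.50), and under IFNγ + LPS for Pmvk (-0.47), Scap (-0.52) and Acly (-0.55).

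Whether replicate numbers pair the libraries is not settled by these values. Deviations of libraries with the same number correlated between -0.04 and 0.31 in experiment 1 and between -0.09 and 0.12 in experiment 2. The highest values, 0.31, 0.09 and 0.13, belong to Dex + dBRD9 + LPS against Dex + LPS. In experiment 1, 12 of 21 libraries correlated best with their own number, and in experiment 2, 2 of 10. With the replicate block the counts of called members in experiment 1 were 20 for LPS, 27 for Dex, 24 for iBRD9, 2 for dBRD9, 19 for iBRD9 added to Dex, 6 for dBRD9 added to Dex, 23 for iBRD9 against dBRD9, and 10 and 1 for the interactions of Dex with iBRD9 and with dBRD9. In experiment 2 they were 21, 5, 0, 1 and 0.

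Depth limits the low members most: Scd1 was under 1 CPM in every library of experiment 1. With 2 libraries a group in experiment 2, the test recovered 33% of 1.5-fold changes planted upward in randomly drawn genes of simulated data. That was for dBRD9 + IFNγ + LPS against IFNγ + LPS, with 12601 genes tested. The recovery was 66% for dBRD9 + LPS against LPS in experiment 1, with 12260 genes tested.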
